A study of Drosophila melanogaster with 4 samples.

Results

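Among the peaks listed for Atonal ChIP-seq in the developing fly eye, the wide peaks of the chromosome arms are described here: 339 of 6065. They were chosen by their width and position: a peak was counted as wide when it spanned 200 bp or more, and it had to lie on one of the 5 large arms (2L, 2R, 3L, 3R and X) away from the 2 Mb beside the centromere, a stretch called the arm interior. The interiors held 1872 listed peaks, of which the 339 made up 18.1% and the 1533 narrower ones the remainder. In the whole list, 1185 peaks (19.5%) were at least 200 bp wide, close to the share in the interiors.

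Atonal is a proneural basic helix-loop-helix transcription factor. It pairs with Daughterless, binds E-box sequences and specifies R8, the founder photoreceptor of each facet of the eye. In the eye imaginal disc, the larval epithelium that becomes the compound eye, it is produced in and near the morphogenetic furrow, so that cells with Atonal are a minority of the disc. A ChIP-seq peak is a stretch where immunoprecipitated fragments outnumber those of a control, and its summit is the position of the highest enrichment.

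Eye discs of third-instar (L3) Drosophila melanogaster larvae that carried the ato:GFP allele, a knock-in of green fluorescent protein labelled as an IMAGO line, were used in all libraries. The animals were untreated and kept at 25 degrees. Per the labels' protocols, 400 larvae gave 800 discs. After fixation and sonication 10% of the chromatin became input, and anti-GFP antibodies were used on what remained. The labels give 2 ChIP and 2 input libraries of this 1 genotype, with no line lacking the fusion. Separate collections of discs for libraries 1 and 2 are not stated. The deposited result is 1 peak list without a value for any library, so no value below has an error between replicates and the sequencing depth is unknown. The list holds no expression value against which the labelled tissue could be checked. Peaks are given by position in Release 5 coordinates, counted from 1. No gene or sequence is assigned to them, because no genome of that release was used here.

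Width, fold, control level, summit and position all come from the same comparison of ChIP with input that defined a wide peak. Differences between wide and narrower peaks are therefore descriptions without a test, and they say nothing about what would be seen in other libraries. The 339 peaks had a median width of 295 bp, with quartiles of 233.5 and 413 bp and a maximum of 1567 bp. The narrower peaks had a median width of 100 bp. Of the wide peaks, 173 were under 300 bp, 57 reached 500 bp and 8 reached 1000 bp. Together they covered 127110 bp, or 43.0% of all the bases under interior peaks. Around the limit itself, the 21 peaks of 200 to 204 bp had a median fold of 1.90 (1.55 to 2.71) and the 17 peaks of 195 to 199 bp one of 1.74 (1.51 to 3.21). The control level, given below as a multiple of the lowest in the list, was at least 1.5 times the lowest at 13 of the 21 and at 14 of the 17. The 7 peaks of exactly 200 bp had folds of 1.56 to 2.39, and the 2 peaks of 199 bp had folds of 1.74 and 1.86.

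Wide peaks fell into a smaller set over low control and a larger set over raised control. The background assigned to each peak, here its control level, was recovered from fold and p-value and is given as a multiple of the lowest in the list. A level of at least 1.5 times the lowest, called raised here, was found at 245 of the 339 wide peaks (72.3%) and at 662 of the 1533 narrower ones (43.2%). Over all interior peaks it was found at 48.5%, and over the whole list at 74.1%. The median control level was 2.96 times the lowest at wide peaks and 1.31 times at narrower ones. A level of at least 3 times the lowest was reached by 159 wide peaks (46.9%) and 210 narrower ones (13.7%). Of the wide peaks, 15 stood at the lowest level, against 256 narrower ones.

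The share of wide peaks was higher at high control levels, though it did not rise at each step. Between 1 and 1.25 times the lowest control level, 68 of 791 interior peaks (8.60%) were wide. The share was 14.9% from 1.25 to 1.5 times, 11.0% from 1.5 to 2 times and 11.9% from 2 to 2.5 times. It stood at 25.4% from 2.5 to 3 times and 25.0% from 3 to 3.5 times. From 3.5 to 4 times it was 43.1%, and at 4 times or more 61 of 81 peaks (75.3%) were wide. The wide peaks of that last class were also the longest, at a median of 467 bp, compared with 264 bp in the lowest class.

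**Figure D1:**
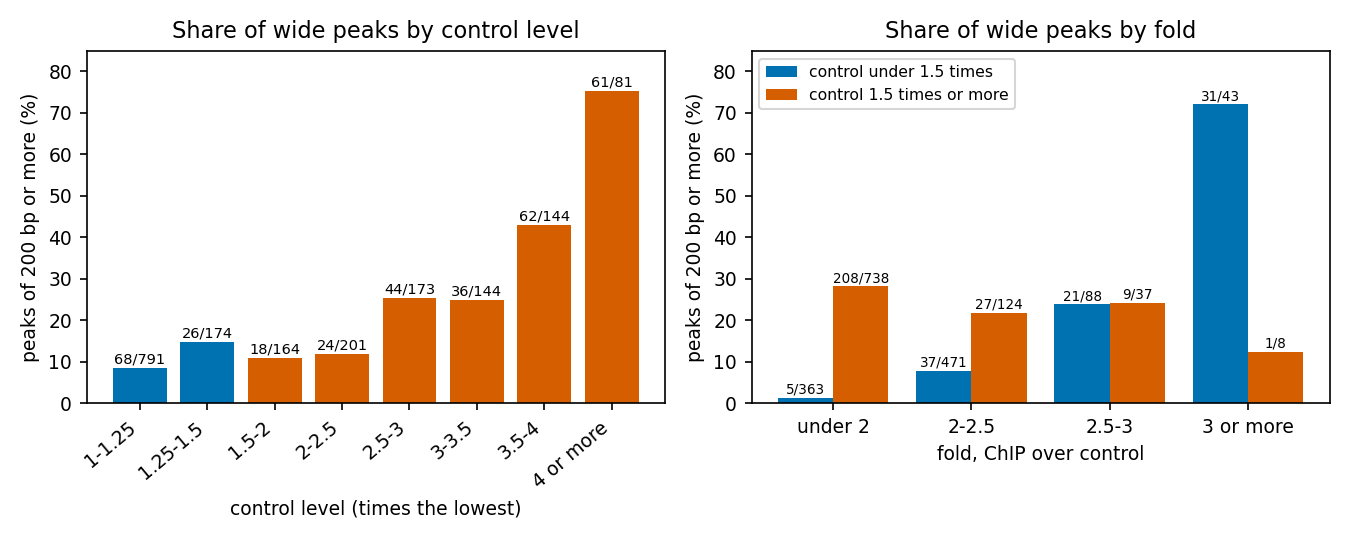
Share of interior peaks that were at least 200 bp wide, by control level as a multiple of the lowest in the list (left) and by fold of ChIP over control (right); bars give percent and the labels the number of wide peaks over all peaks, with blue for control under 1.5 times the lowest and orange for 1.5 times or more. The share ran from 8.60% to 75.3% across control levels, and it rose with fold from 1.38% to 72.1% at low control but not at raised control.

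Where control was low, the share of wide peaks was larger in each higher class of fold, although the strongest interior peak was itself a narrower one, with a fold of 6.28 against 5.54 for the strongest wide peak. Among interior peaks with control under 1.5 times the lowest, 5 of 363 with a fold under 2 were wide (1.38%). The share was 37 of 471 (7.86%) for folds from 2 to 2.5, 21 of 88 (23.9%) from 2.5 to 3, and 31 of 43 (72.1%) at 3 or more. The median width in these classes was 99, 101, 129.5 and 293 bp. With raised control there was no such order: 208 of 738 peaks (28.2%) with a fold under 2 were wide, then 21.8% and 24.3% in the middle classes, and 1 of 8 at a fold of 3 or more.

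Enrichment itself was modest and differed between the sets. The list gives 1 fold per peak, read here as the value at 1 position and not as a mean over the peak's width. The median fold was 1.82 over all wide peaks and 1.94 over the narrower ones. At low control it was 2.67 for the 94 wide peaks (quartiles 2.29 and 3.11) and 2.05 for the 871 narrower ones, the opposite order to that of the pooled medians. The pooled order also turned, to 2.04 against 1.99, when peaks within 500 bp were merged. Each merged region took the fold of its peak with the highest −log10 q, the significance given by the peak caller. Regions of several peaks thus carried a selected fold, and this turn cannot be read as a change in enrichment. Without stretches of 5 or more peaks the medians were 1.95 and 1.94. At raised control the median fold was 1.72 for both the 245 wide and the 662 narrower peaks. In finer classes of control level the wide peaks had the higher median in 7 of 8, and in 5 of the 6 with raised control. The medians were 2.77 against 2.10 from 1 to 1.25 times the lowest control and 2.45 against 1.90 from 1.25 to 1.5 times. From 1.5 to 2 times they were 1.91 against 1.92, the 1 class in the other order. From 2 to 2.5 times they were 1.91 against 1.75, from 3 to 3.5 times 1.75 against 1.60, and at 4 times or more 1.70 against 1.64. The lowest fold of any interior peak was 1.75 in the first of the 8 classes and 1.42 in the last, so that medians of different classes start from different floors.

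At least 3-fold enrichment was found at 32 wide peaks (9.44%) and 19 narrower ones (1.24%), beside 2.72% of all interior peaks and 1.43% of the whole list. Of the 32, 31 had low control. The highest ChIP level recovered anywhere in the list was 138, shared by 93 peaks, 6 of which were wide interior peaks. With that level, the fold would be 5.09 at 1.5 times the lowest control, 2.59 at 3 times and 1.96 at 4 times. Whether a ChIP level above 138 was possible is not known. A fold of 3 would have needed a level above 138 at 200 wide peaks (59.0%) and 315 narrower ones (20.5%). Among the others, 32 of 139 wide peaks (23.0%) and 19 of 1218 narrower ones (1.56%) had a fold of at least 3. The wide peaks at 4 times the lowest control or more had a median ChIP level of 129. None of them had a fold above 1.87.

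**Figure D2:**
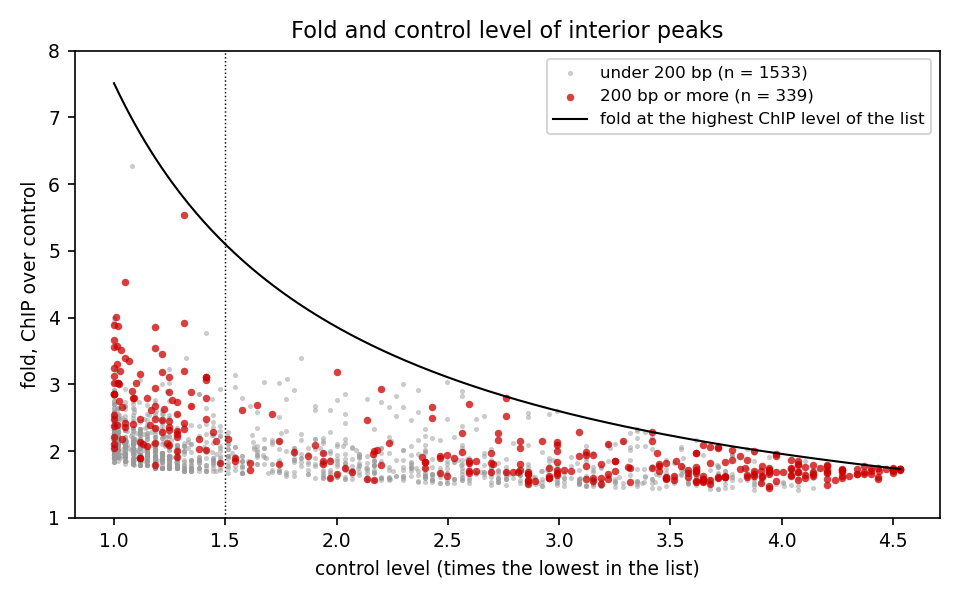
Fold of ChIP over control (y axis) against control level as a multiple of the lowest (x axis) for the 339 wide (red) and 1533 narrower (grey) interior peaks; the line is the fold that the highest ChIP level in the list allows and the dotted line marks 1.5 times. The 31 wide peaks with low control and a fold of at least 3 lie at the upper left. On the right, the 61 at 4 times or more have folds no higher than 1.87. Most of the 339 wide peaks lie in neither place.

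Of the 10 wide peaks with the highest fold, each had a control level of at most 1.31 times the lowest, and they ranged from 254 to 1567 bp in width. The first was chr3L:17352888-17354088, 1201 bp wide, with a fold of 5.54 and 48.5 as its −log10 q. Its summit stood 92 bp from the left edge, at 7.70% of the width, so it was the most lopsided of the 10. The next listed peak lay 33280 bp away.

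The second, chrX:2685666-2687232, was the widest of all 339 at 1567 bp and had a fold of 4.54. It was part of a group of 4 wide peaks on X that no narrower peak interrupted. The group began with chrX:2684302-2684537, 236 bp wide with a fold of 3.13. After a gap of 158 bp came chrX:2684696-2685587, 892 bp wide with a fold of 3.89, and after a further 78 bp the widest peak. The last, chrX:2690146-2690675, lay 2913 bp on, with a width of 530 bp and a fold of 3.02. The widest stood at 1.05 times the lowest control level and the others at the lowest. The nearest other peaks lay 20785 bp to the left and 50695 bp to the right.

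The next by fold were compact. The peak chr3R:10591232-10591558, 327 bp wide, had a fold of 4.02, its summit at 50.9% of the width and a control level of 1.01 times the lowest. A narrower companion of 118 bp with a fold of 2.70, chr3R:10591733-10591850, began 174 bp further on, and the next listed peak lay 109858 bp beyond the pair. The peak chr3L:13134640-13135138, 499 bp wide, had a fold of 3.91, with its summit at 65.6% and its nearest neighbour 65209 bp away.

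On 2L the highest folds were 3.87 at both chr2L:19154936-19155277 (342 bp) and chr2L:6646262-6646651 (390 bp). Both stood alone, with the nearest listed peak 138569 and 69271 bp away, and their summits lay at 63.3% and 63.2% of the width. The peak chrX:16321012-16321294, 283 bp wide, reached 3.67 at the lowest control level, with the summit at 51.4%. On 2R the leading peak was chr2R:20167676-20168238 (563 bp) with a fold of 3.58, which lay 189 bp from a narrower peak with a fold of 1.92. It was followed by chr2R:17260070-17260323 with a fold of 3.56 and a width of 254 bp, the shortest of the 10. In 8 of these 10 peaks the summit fell in the middle of the peak, from 33.3% to 66.7% of its width, and 6 had no other listed peak within 10000 bp.

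The 10 wide peaks with the highest −log10 q, the significance the authors' peak caller gave, were a different choice: they shared 6 with the 10 highest folds, and the other 4 had raised control. Those 4 had folds of 2.71 to 3.18 only. One was chr3L:20469977-20470378, 402 bp wide, where fold was 3.18, −log10 q 20.9 and control 2.00 times the lowest. It was the single wide peak with raised control and a fold of at least 3. Another, chr3L:20477118-20477425, had a fold of 2.93 and lay beside wide peaks of 301 and 699 bp with folds of 1.63 and 1.92. The remaining pair were chrX:9409568-9409806 (2.80-fold at 2.76 times the lowest control) and chr2R:2316569-2316769 (2.71-fold at 2.60 times).

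The 10 widest peaks went the other way. Except for the leading peaks of 3L and X described above, the 8 others had control levels of at least 3.58 times the lowest and folds of 1.59 to 1.79. They included chr3R:19384207-19385706 (1500 bp, 1.78-fold), chrX:7895-9358 (1464 bp, 1.70-fold) and its neighbour chrX:6822-7815 (994 bp, 1.73-fold), chr2L:8428585-8429702 (1118 bp, 1.59-fold) and chr2R:2237773-2238798 (1026 bp, 1.67-fold). Of the 10, 8 had another listed peak within 1000 bp.

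The summit stood in the middle of the peak, between 33.3% and 66.7% of the width, in 141 of the 339 wide peaks (41.6%) and in 637 of the 1533 narrower ones (41.6%), against 33.3% if summits were placed evenly. Over the whole list the share was 45.0%, and over all interior peaks 41.6%. The equality depended on the limits: with wide peaks set at 150 bp the shares were 35.1% and 44.5%, and at or above the median score 42.6% and 60.4%. After merging within 500 bp they were 25.4% and 40.9%, where each merged region kept the summit of its peak with the highest −log10 q. The parts to the left and to the right of the middle held 99 wide summits each. Within the wide peaks the sets differed. The middle held 22 of the 31 low-control peaks with a fold of at least 3 (71.0%), 26 of the 63 low-control peaks with a lower fold (41.3%) and 93 of the 245 with raised control (38.0%). In distance, the summit lay a median of 125 bp from the nearer edge in the first of these sets, 72 bp in the second and 90 bp in the third. No summit of the first set, the smallest with 31 peaks, came within 25 bp of an edge, whereas 7 of the second (11.1%) and 16 of the third (6.53%) did. These sets differ in width, with medians of 326, 241 and 317 bp, and the part of width in the summit's position was not tested. Among narrower peaks the middle held 41.9% of summits at low control and 41.1% at raised control. The summits of narrower peaks with a fold of at least 3 were not counted apart.

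**Figure D3:**
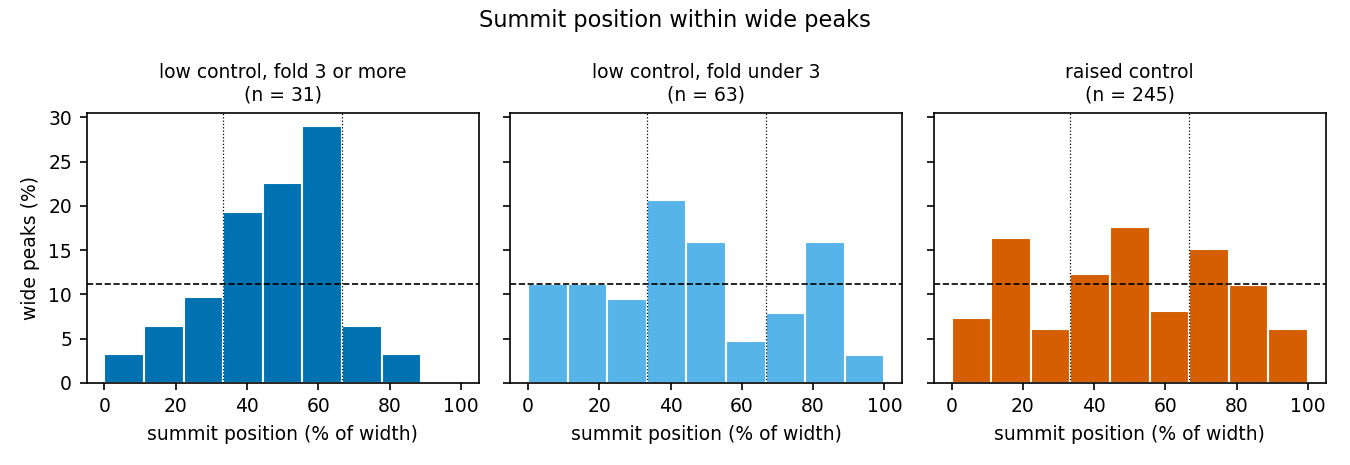
Summit position as percent of the peak's width (x axis) against percent of wide peaks (y axis) in 9 equal bins, for low-control peaks with a fold of at least 3, low-control peaks with a lower fold and raised-control peaks; the dashed line is an even spread and the dotted lines bound the middle part. The 31 strong low-control peaks gather towards the middle (71.0% between the dotted lines), while the 245 raised-control peaks lie at 38.0%.

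Wide peaks had closer neighbours than narrower ones. Another listed peak lay within 1000 bp, measured from edge to edge, of 241 of the 339 wide peaks (71.1%) and 545 of the 1533 narrower ones (35.6%), beside 42.0% of all interior peaks and 62.8% of the whole list. The median gap was 322 bp for wide and 3640 bp for narrower peaks. The shares differed with control level: at raised control the shares were 213 of 245 (86.9%) and 441 of 662 (66.6%), and at low control 28 of 94 (29.8%) and 104 of 871 (11.9%). Wide peaks had the larger share in both classes. The median gap at low control was nearly the same for wide and narrower peaks, at 15760 and 15930 bp.

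No gap in the list was shorter than 76 bp and no peak was shorter than 69 bp. Gaps close to this floor were common among wide peaks with raised control, of which 117 (47.8%) had another peak within 150 bp. The share was 7 of the 94 with low control (7.45%) and 17.2% of all interior peaks. Narrower peaks also differed by control class, with 27.2% at raised and 2.07% at low control. Whether such neighbours are separate sites or 1 stretch listed in pieces cannot be told from the list. On both sides, another peak within 1000 bp was found at 120 of the 245 raised-control wide peaks (49.0%) and at 2 of the 94 with low control (2.13%). Over the whole list the share was 29.7%, and over all interior peaks 18.8%. Among narrower peaks it was 31.7% at raised and 2.30% at low control, so at low control wide and narrower peaks were alike in this. Neighbours mostly shared the control class, among wide and narrower peaks alike. Where a raised-control wide peak had one within 1000 bp, it too had raised control in 206 of 213 cases (96.7%), against 417 of 441 (94.6%) for narrower peaks with raised control. Where a low-control wide peak had one, it had raised control in 5 of 28 (17.9%), against 30 of 104 (28.8%) for narrower peaks with low control. The stretch of input behind each control level is not given, so near neighbours may share part of it. Standing alone, with no other peak within 10000 bp, was found for 55 of the 94 low-control wide peaks (58.5%), close to the 58.9% of low-control narrower peaks, and for 8 of the 245 with raised control (3.27%), beside 35.0% of all interior peaks.

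**Figure D4:**
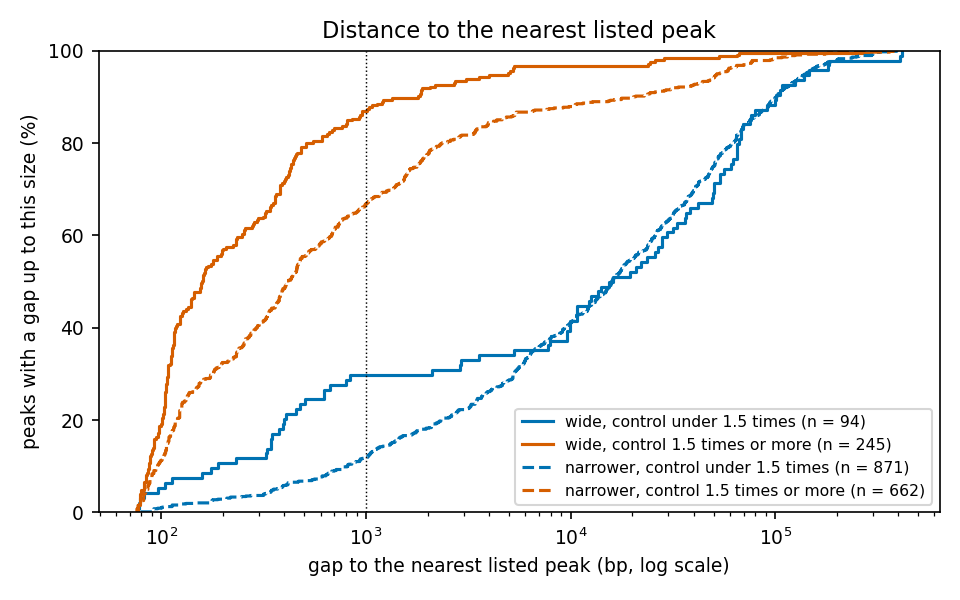
Percent of peaks (y axis) whose gap to the nearest listed peak is no larger than the value on the x axis (bp, log scale), for wide (solid) and narrower (dashed) interior peaks with control under 1.5 times the lowest (blue) or above (orange); the dotted line marks 1000 bp. At that line the wide peaks stand at 86.9% with raised and 29.8% with low control, the narrower ones at 66.6% and 11.9%.

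When peaks within 500 bp were joined, the 339 wide peaks fell into 236 stretches. In 123 of these the wide peak was the single member, with low control in 72 and raised control in 51. The other 113 stretches held 216 of the wide peaks; all members had raised control in 90, all had low control in 14, and 9 were mixed. At least 5 peaks were joined in 23 stretches, which held 88 wide peaks, each with raised control. The narrower peaks of these 23 stretches all had raised control as well, so this was not particular to the wide ones. Stretches without a wide peak were not counted, so no share over all interior stretches stands beside these numbers.

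The fullest stretch lay at the tip of X, chrX:3346-12741, where 12 peaks, 11 of them wide, covered 73.3% of 9396 bp. Their folds ran from 1.62 to 1.93 and their control levels from 3.56 to 4.53 times the lowest, which includes the highest control level of any wide peak. The next were chr2R:2234486-2239007, with 8 wide among 11 peaks and folds of 1.51 to 1.81, and chr2R:2285653-2290100, with 8 wide among 10 peaks and folds of 1.57 to 2.27. Control levels in these ran from 3.06 to 4.20 and from 2.56 to 4.27 times the lowest. A further dense place, picked out after its values were seen, was chrX:13939871-13955419. There 18 of 22 peaks were wide within 15549 bp, none more than 592 bp from the next, and the wide ones had folds of 1.68 to 2.28 over control at 2.73 to 4.53 times the lowest.

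By arm, the interior of X held 86 wide peaks, 2R 82, 3R 73, 2L 53 and 3L 45. Per Mb this was 4.31 on 2R, 4.22 on X, 2.83 on 3R, 2.52 on 2L and 2.00 on 3L, with the position of the last peak standing in for the end of 2R and 3R. Of the 82 on 2R, 40 lay from 2 to 3 Mb. As a share of the interior peaks of each arm, wide peaks made up 25.1% on X, 22.5% on 2R, 16.0% on 3R, 14.8% on 2L and 12.8% on 3L. Raised control was found at 89.5% of the wide peaks on X and at 53.3% of those on 3L, with the other arms at 67.1% to 70.7%. Over all interior peaks of each arm the share was 70.3% on X, 55.2% on 2R, 42.5% on 3L, 39.7% on 2L and 38.2% on 3R, so X was also the highest among peaks of any width. The low-control wide peaks numbered 24 on 2R, 24 on 3R, 21 on 3L, 16 on 2L and 9 on X. Although X had the fewest of these, 6 of its 9 reached a fold of 3, 4 of them in the group described above, and its median fold was 3.07. The low-control medians of the other arms were 2.82 on 2L, 2.79 on 3L, 2.55 on 3R and 2.49 on 2R. At raised control the arm medians lay between 1.70 on 2R and 1.76 on 3R. Wide peaks made up a larger share of raised-control than of low-control peaks on all 5 arms, from 16.1% against 10.4% on 3L to 32.0% against 8.82% on X.

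**Figure D5:**
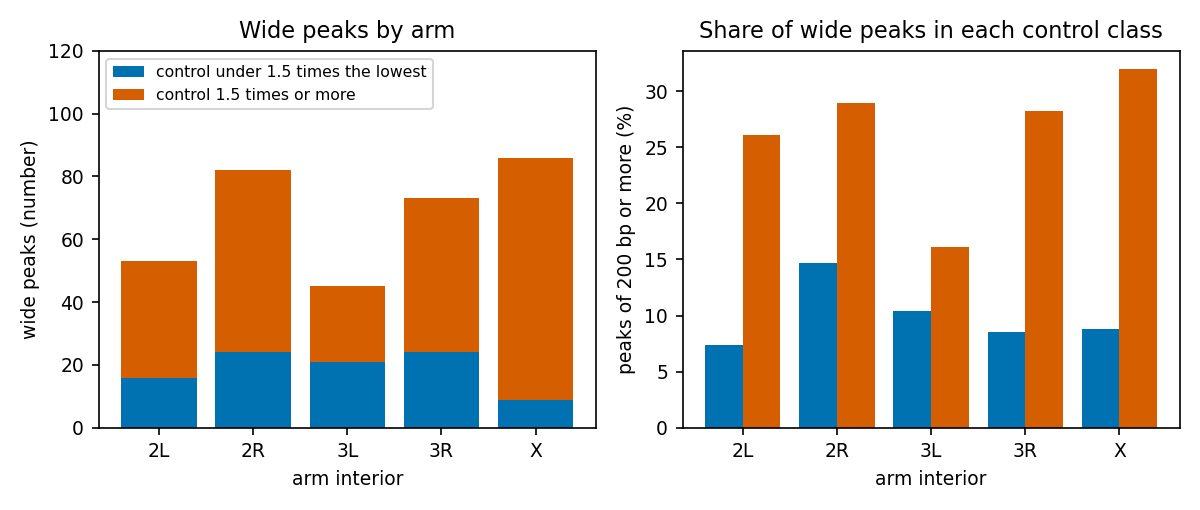
Wide interior peaks on each of the 5 arms: their number (left, stacked) and their share of the interior peaks of each control class (right, percent), with blue for control under 1.5 times the lowest and orange for 1.5 times or more. On X 77 of 86 wide peaks had raised control, and on each arm the orange share exceeded the blue one.

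Along the arms the 2 sets were spread differently. Low-control wide peaks occurred in 57 of 111 bins of 1 Mb and never exceeded 5 in a bin. Raised-control wide peaks occurred in 62 bins, but a few bins held many. On 2R from 2 to 3 Mb, next to the excluded stretch, 40 of 120 interior peaks were wide, 39 of them with raised control. On X, 23 of 37 were wide from 13 to 14 Mb and 15 of 43 from 0 to 1 Mb, beside 18.1% of all interior peaks. The 2R bin and the X bin from 0 to 1 Mb thus held more narrower than wide peaks. The X bin from 13 to 14 Mb held more wide than narrower ones. The 10 bins with the most wide peaks together held 137 of them (40.4%), of which 124 had raised and 13 low control. These bins were ranked by that number, and their share of all interior peaks was not computed.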

How the data were processed

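The members, the limits and the descriptions were chosen with earlier results of these data known. The submitters' processing notes name Bowtie2 2.2.1. Which peak caller and build were used, and whether libraries were pooled, is not given in the sources used here. No header names the columns. Its 10 columns were read as narrowPeak, and its Het scaffolds mark the build as Release 5. The deposited fold is a ratio, ChIP to control. The authors' caller also gave −log10 p and −log10 q, and the deposited score is 10 times −log10 q cut to a whole number in 100% of peaks.

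ChIP and control levels were recovered from the deposited fold and p-value by the MACS2 definitions, with (ChIP + 1)/(control + 1) as fold and the upper Poisson tail as p. A whole ChIP level was found for all 6065 peaks to within 8.29e-05 (−log10 p scale), the next whole number missing by at least 0.0247. The lowest control level, 17.5, was shared by 320 peaks. Whether it is a floor set by the caller, with less input at some of these places, cannot be told from the list. For 6065 peaks simulated with these same formulas, the recovery was right in 100%. This checks the inversion, not whether the deposited columns follow the formulas. Each peak's fold and p fitted 1 whole ChIP level, so they are read as values at 1 position. Levels are not library totals. Gaps run from edge to edge to the nearest listed peak of any width.

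Named peaks are the 10 widest, the 10 with the highest fold, the 10 with the highest −log10 q, the leading peak by fold of each arm, the 5 on either side of the width limit (ties at the limit made these 7 above it; below it the peaks of 199 bp are given) and the 3 fullest stretches. Counts, medians and shares were computed in Python 3.11.15 with pandas 2.3.3. No test was run, because every measure comes from the comparison that chose the members. Alternatives were other limits of width, stretch, fold, control and distance, a score limit and merging.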

Additional observations from a re-analysis of the deposited data

How the results depend on the processing

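Each of 6 results (the number of wide peaks, and wide minus narrower peaks for 5 measures) was recomputed, in 46 planned cases and 42 added after seeing the data (each arm left out in turn, the 2R bin from 2 to 3 Mb left out, stretches of 5 or more peaks left out). A difference counted as kept when it moved by less than the 95% binomial interval of the wide value, and the number of peaks when it stayed within 1.5 times. By this rule 27 planned and 39 added cases were kept. The interval treats peaks as separate draws, although they come from 1 list and 216 of the 339 lay in stretches of several peaks. It served only as a yardstick for size and measures no spread between libraries. The number of wide peaks, 339, was 581 at a limit of 150 bp, 166 at 300 bp and 94 with control under 1.5 times the lowest. The difference in median fold, −0.12, turned to 0.61 at low control, to 0.06 after merging within 500 bp and to 0.01 without stretches of 5 or more peaks; it was −0.30 with scores at or above the median. The difference in raised control, 29.1 percentage points, was 36.7 at 300 bp, 14.5 at the score limit, 42.1 after merging and 22.5 without the stretches. That in central summits, 0.0404 points, was −9.35 at 150 bp, −17.8 at the score limit, 9.16 at low control and −15.6 after merging, so it has no settled sign. That in neighbours, 35.5 points, was 27.2 at 150 bp, 26.3 at the score limit, 15.5 at low control with neighbours of low control, 24.9 within 5000 bp and 28.3 without the stretches. That in folds of at least 3, 8.20 points, was 5.28 at 150 bp and 31.6 at low control. The causes were not tested, except that limits on score or control remove peaks and merging lengthens regions. Merging also gives each region the fold, control level and summit of its peak with the highest −log10 q. No paired analysis was possible because values of single libraries are not part of the list, and no replicate could be left out for the same reason. Depth per library is unknown.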
